A study of Sus scrofa with 8 samples.

Results

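Amino acid transporter genes of the solute carrier (SLC) families SLC1, SLC3, SLC6, SLC7, SLC36, SLC38 and SLC43 were examined in porcine pancreatic ductal organoids (PPDO). The members were all genes whose symbol in the deposited gene count table belongs to one of these 7 families, which gave 57 of the 30282 genes in the table. They comprised 7 genes of SLC1, 2 of SLC3, 18 of SLC6, 12 of SLC7, 4 of SLC36, 11 of SLC38 and 3 of SLC43. No expression value was used to choose them, although the families were picked with earlier results of these data known. A few members carry other substrates, among them SLC6A2 and SLC6A4 for monoamines and SLC6A8 for creatine.

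PPDO are epithelial organoids grown from pig pancreatic ducts in basement membrane gel. Poly(A) RNA of 4 lines was sequenced, namely Em from an embryonic pancreas, EPN1 and EPN2 from early postnatal pancreata and LPN from a late postnatal pancreas. Each line was cultured in complete medium (titled control) and in differentiation medium (titled treated), which gave 8 libraries, 4 per medium. The donors were wild-type and INS-eGFP reporter pigs, and the genotype of each line was not used here. Both media held N2, B27 without vitamin A, the TGF-beta receptor inhibitor A83-01, the ROCK inhibitor Y-27632, nicotinamide and N-acetyl-L-cysteine. Complete medium added WNT3a, R-spondin1, noggin, FGF10, EGF, gastrin and prostaglandin E2, which differentiation medium lacked. For maintaining PPDO the study replaced WNT3a, R-spondin1 and noggin with a conditioned medium supplement (L-WRN). The media may therefore have differed in other components too. A treatment field of the sample records names endocrine induction for all libraries, so the media were taken from the titles. Every line is the culture of 1 animal with 1 library per medium, so developmental stage and individual animal cannot be told apart.

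Cells take up amino acids through carriers with overlapping substrates. SLC7 light chains such as SLC7A5, SLC7A8, SLC7A7 and SLC7A11 reach the plasma membrane only when bound to the heavy chain SLC3A2, and they exchange one amino acid for another. SLC1A5 and the SLC38 carriers load cells with glutamine and other small neutral amino acids, and members such as SLC36A1, SLC38A7 and SLC38A9 sit in lysosomal membranes, where they release amino acids or report them to mTORC1. In the exocrine pancreas amino acid transport has been studied chiefly in acinar cells, which use the imported amino acids to make digestive enzymes.

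Library totals ranged from 40553593 to 47910657 counts, and 3 counts, the most that a count of 0 allows, equal 0.0619 to 0.0731 CPM. All 10 ductal and epithelial markers were measured, and the acinar genes CPB1, PNLIP and PTF1A were at 0 CPM in every library, whereas CTRC ranged from 124 to 319 CPM. Insulin counts were found only in Em in differentiation medium, at 1.40 CPM, and the summed CPM of 10 endocrine markers were 24.1 there and 0.877 to 3.36 in the 7 other libraries. Summed ductal marker CPM were 7108 to 10115 in complete medium. In differentiation medium they were 15076 in Em, 10597 in EPN1, 4003 in EPN2 and 6032 in LPN, so EPN2 was lowest there, with KRT7 at 522 against 1218 to 2837 CPM in the other lines. Summed immune marker CPM were 1180 to 1850 in complete and 1049 to 1222 in differentiation medium, with 6 of 8 markers tested. Endothelial sums were 36.4 to 86.7 and 37.4 to 65.0, and stromal sums 22.5 to 73.1 and 2.45 to 51.4. A sum does not show which cells the counts came from. In bulk samples, fewer cells of a type and less RNA per cell cannot be told apart. Expression is given below as CPM, library-scaled read counts with TMM factors, which are not corrected for transcript length, so levels are compared between libraries and not between genes.

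Of the 57 members, 33 passed the expression filter of edgeR and were tested. Of the 24 others, 4 had no count in any library, among them SLC7A3, SLC7A13 and SLC7A14, and SLC1A7, SLC6A5, SLC6A18, SLC6A19, SLC38A1 and SLC43A1 had at most 3 counts in each. The identifier that carries the symbol SLC38A1 in this table is another one than a separate name table pairs with it, so its near absence cannot be read as absence of this glutamine carrier. The remaining 14 reached between 4 counts (SLC6A11) and 101 counts (SLC6A20) in their highest library.

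The plot of CPM by library shows how widely the tested members differed between lines as well as between media.

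**Figure D1:**
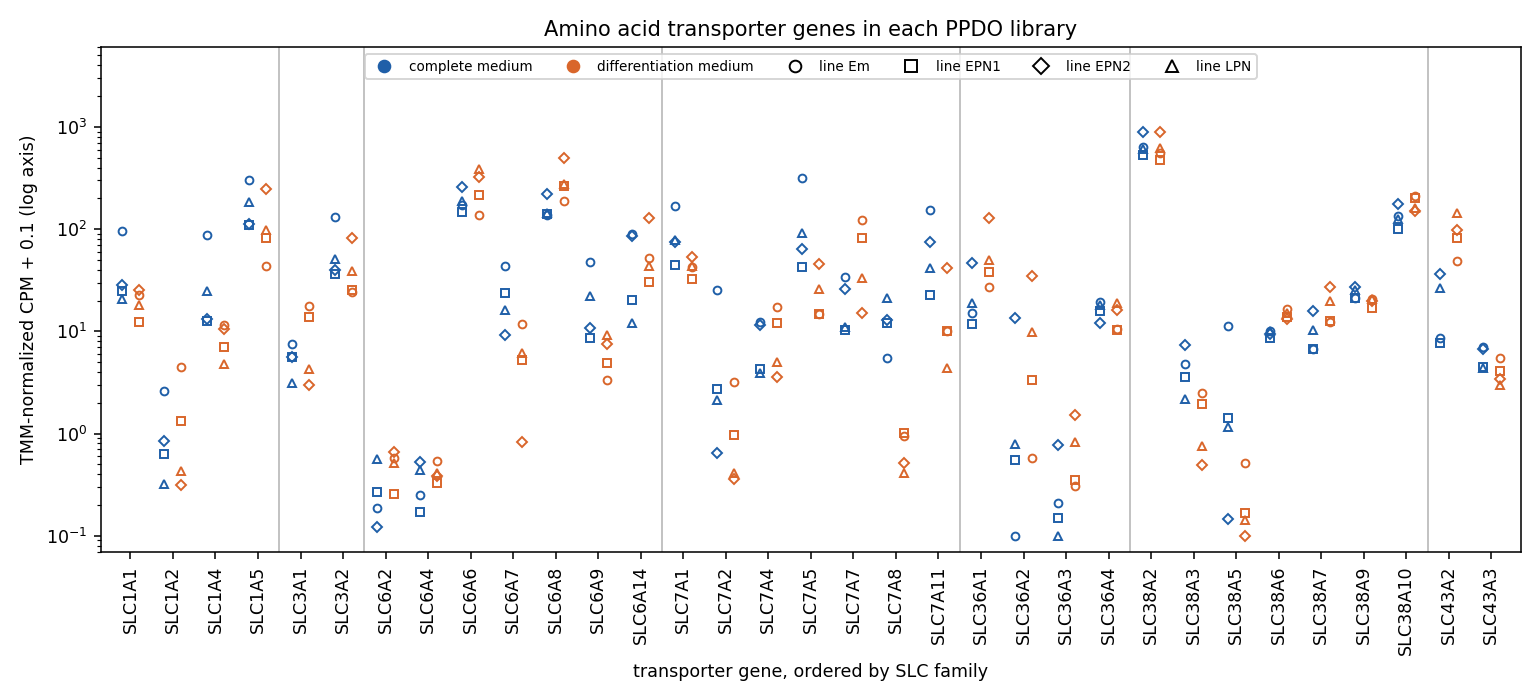
TMM-normalized CPM plus 0.1 (log axis) of the 33 tested transporter genes in each of the 8 libraries, ordered by SLC family, with colour for the medium and symbol for the line. SLC7A8 and SLC43A2 have no overlap between the media, whereas for genes such as SLC36A2, from 0 to 13.5 CPM in complete medium, lines within a medium lie far apart.

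The comparison of the media asked which transporters change between complete and differentiation medium. In the quasi-likelihood test of edgeR without a term for the line, 1 of the 33 members passed an adjusted p-value of 0.05, SLC7A8, which was lower in differentiation medium. The share among all 14475 genes tested was 6.97%, or 2.87% higher and 4.10% lower, so the members did not pass more often than other genes. Without adjustment 14 of 33 members were under 0.05, 5 higher and 9 lower, against 27.3% of all genes. Because both libraries of a line come from the same animal, the line was also used as a block. With the block 10 of 33 members passed, against 19.9% of all genes. SLC36A1, SLC36A2, SLC38A6, SLC38A7, SLC43A2 and SLC6A8 were higher, against 9.48% of all genes, and SLC38A5, SLC6A7, SLC7A2 and SLC7A8 were lower, against 10.4%. These blocked calls depended on which lines were included, and so did those over the whole table. Without EPN1 0 members and 8 of all genes passed, and without LPN 0 members and 22 genes. Without Em 5 members and 1730 genes passed, and without EPN2 15 members and 2989 genes, beside 2884 genes with all 4 lines. Among the same 33, DESeq2 called 10 without the block, against 18.8% of all genes, and 17 with it, against 36.9%. The median log2 fold change of the tested members was -0.07, beside 0.01 over all genes tested. In all 4 lines 13 members were lower in differentiation medium, a share of 39.4% against 24.2% of all genes, and 7 members were higher in all 4 lines, against 23.9%. CPM of the media did not overlap for 5 of 33 members, against 18.8% of all genes, namely SLC38A6 and SLC43A2 on the higher side, against 8.82%, and SLC7A8, SLC1A4 and SLC38A9 on the lower side, against 9.96%.

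**Figure D2:**
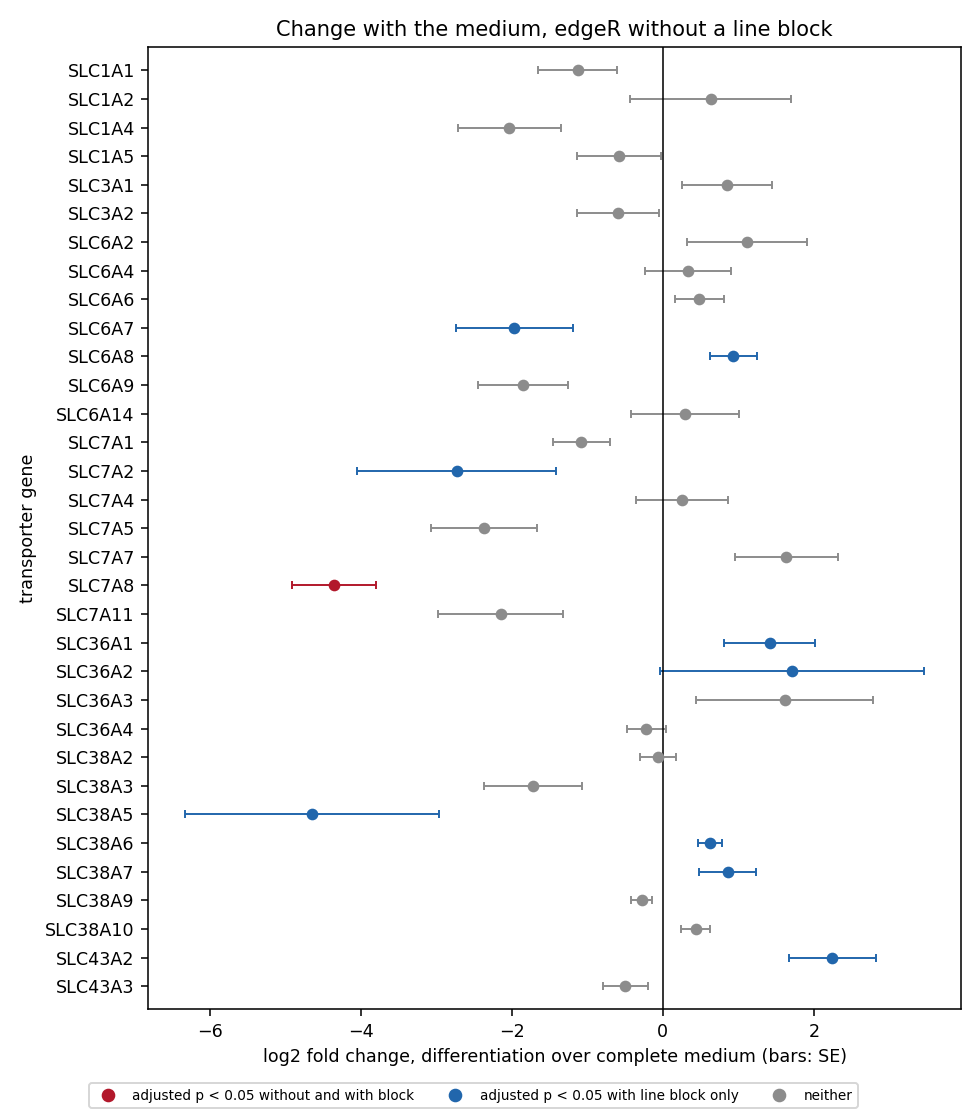
Log2 fold change of differentiation over complete medium for the 33 tested transporter genes from edgeR without a line block, with bars for the SE (n = 4 lines per medium) and colour for the calls at an adjusted p-value of 0.05. SLC7A8 at -4.36 is the only gene called in both fits, and the 9 genes in blue were called with the line block alone.

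The carriers of large neutral amino acids differed in direction, with SLC7A8 lower and SLC43A2 higher in differentiation medium. SLC7A8, which exchanges large and small neutral amino acids across basolateral membranes and lies in Sscrofa11.1 at chr7:75854700-75921931 by the RefSeq annotation, was at 5.33 CPM in Em, 12.1 in EPN1, 12.8 in EPN2 and 21.0 in LPN in complete medium. In differentiation medium it was at 0.846, 0.905, 0.420 and 0.313 CPM in the same order. Every library in differentiation medium was below every library in complete medium, and the mean fell from 12.8 ± 6.41 to 0.621 ± 0.298 CPM (SD, n = 4), a 20.6-fold difference. The log2 fold change was -4.36 ± 0.56 (SE, edgeR, adjusted p = 0.0119). It stayed between -4.59 and -4.02 in the fit without the block, its variants and the fits without 1 library, 15 in all, and each called it, with edgeR adjusted p-values of 0.0168 to 0.0434 without 1 library. With the block it was not called when both libraries of EPN1 or of LPN were left out. The fall was largest in LPN, at -5.67 on the log2 scale, and smallest in Em, at -2.52, where the level in complete medium was lowest. This difference between lines has 1 library per line and medium and was not tested.

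SLC43A2, a facilitative carrier of branched-chain and aromatic amino acids that needs no heavy chain (chr12:47791911-47839127), had the opposite pattern. Its CPM in complete medium were 8.58 in Em, 7.65 in EPN1, 36.1 in EPN2 and 26.2 in LPN, and in differentiation medium 48.7, 81.4, 97.0 and 144. All 4 values in differentiation medium lay above all 4 in complete medium, with means of 92.8 ± 39.7 and 19.6 ± 13.9 CPM (SD, n = 4), a 4.73-fold difference. Its log2 fold change of 2.24 ± 0.58 (SE) missed the threshold without the block (edgeR, adjusted p = 0.0567) and passed with it (2.45 ± 0.33, adjusted p = 0.0145). Without EPN2 in complete medium it passed also in the edgeR fit without the block (adjusted p = 0.0400), and DESeq2 called it on all libraries without the block (adjusted p = 0.00148). SLC43A3, a relative that carries purine nucleobases, was between 2.90 and 6.87 CPM in all libraries, with a log2 fold change of -0.50 ± 0.30.

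SLC7A5, the main uptake route for leucine and other large neutral amino acids in growing cells (chr6:1545940-1574298), was lower in differentiation medium in each line without passing the test. Em stood at 319 CPM in complete medium, beside 42.6 in EPN1, 63.7 in EPN2 and 92.3 in LPN, and the values in differentiation medium were 14.7, 14.5, 45.1 and 25.6. EPN2 in differentiation medium lay above EPN1 in complete medium, so the media overlapped. Its log2 fold change was -2.37 ± 0.70 (SE, edgeR, adjusted p = 0.0810), it was -1.39 (adjusted p = 0.130) without Em in complete medium, and the block left it short of the threshold as well (adjusted p = 0.0845). DESeq2 called it without the block (adjusted p = 0.00634) and with it (adjusted p = 0.00334). Within the lines the log2 change ran from -4.43 in Em and -1.85 in LPN to -1.55 in EPN1 and -0.50 in EPN2.

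SLC7A11, the light chain of the cystine and glutamate exchanger, was likewise lower in all 4 lines. It was at 154 CPM in Em, 22.6 in EPN1, 75.5 in EPN2 and 41.5 in LPN in complete medium and at 10.01, 10.1, 41.8 and 4.26 in differentiation medium. EPN2 kept the highest value in differentiation medium, about level with LPN in complete medium. With a log2 fold change of -2.15 ± 0.82 (SE) it did not pass in edgeR (adjusted p = 0.142; adjusted p = 0.0567 with the block), and both DESeq2 fits called it, with adjusted p = 0.0411 without and adjusted p = 0.000306 with the block.

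The heavy chain SLC3A2 did not follow its light chains in every line. It was at 131 CPM in Em, 36.3 in EPN1, 39.6 in EPN2 and 51.2 in LPN in complete medium and at 24.2, 25.2, 82.5 and 39.0 in differentiation medium. It was lower in 3 lines and higher in EPN2, by 1.06 on the log2 scale, where SLC7A5 and SLC7A11 were lower. The log2 fold change of -0.60 ± 0.54 (SE, edgeR, adjusted p = 0.511) became 0.03 without Em in complete medium, so its direction rested on that library. The other heavy chain SLC3A1, which pairs with SLC7A9 and SLC7A13 in the uptake of cystine and basic amino acids in kidney and gut, was at 7.37, 5.53, 5.49 and 3.02 CPM in Em, EPN1, EPN2 and LPN in complete medium and at 17.7, 13.7, 2.90 and 4.15 in differentiation medium (log2 fold change 0.84 ± 0.60, edgeR, adjusted p = 0.392). Of its partners, SLC7A9 had at most 7 counts in a library and SLC7A13 none.

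**Figure D3:**
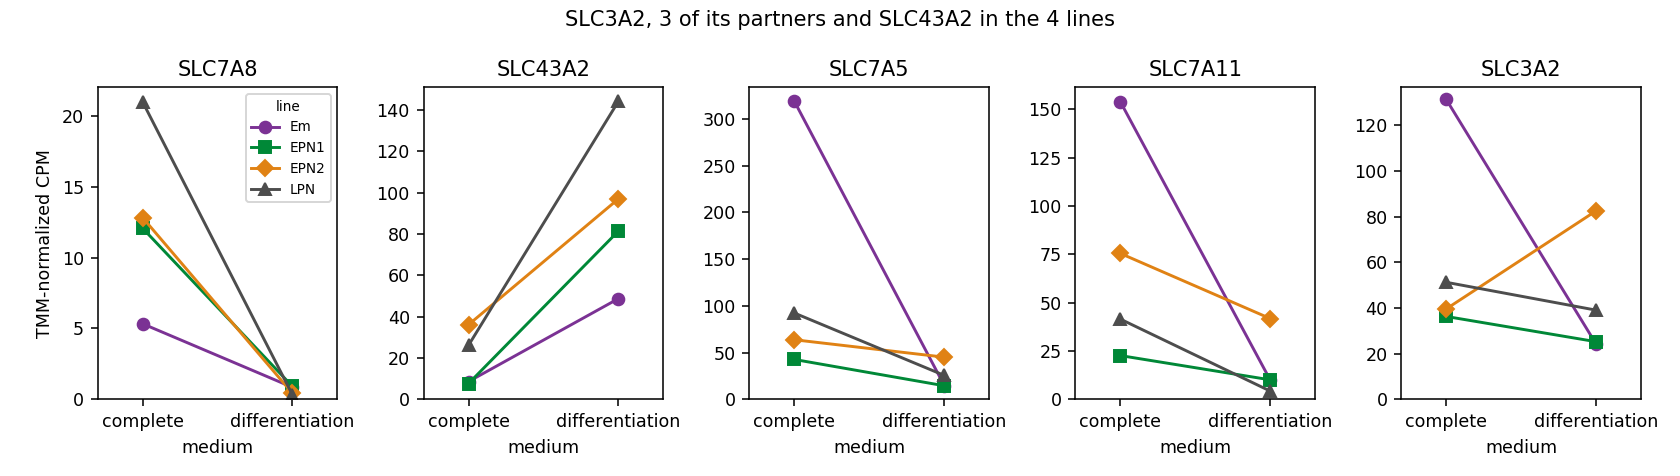
TMM-normalized CPM of SLC7A8, SLC43A2, SLC7A5, SLC7A11 and SLC3A2 in complete and differentiation medium, with 1 line of the plot per PPDO line (Em, EPN1, EPN2, LPN) and linear axes from 0. SLC7A8 drops below 1 CPM in all 4 lines, SLC43A2 is higher in each, and SLC3A2 is higher in differentiation medium in EPN2 alone, at 82.5 against 39.6 CPM.

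The carriers of basic amino acids in SLC7 also differed in direction. SLC7A2, an arginine and lysine carrier, was at 25.1 CPM in Em, 2.60 in EPN1, 0.543 in EPN2 and 2.02 in LPN in complete medium and at 3.12, 0.860, 0.257 and 0.313 in differentiation medium. It was lower in all 4 lines and passed in edgeR only with the block (log2 fold change -2.15 ± 0.40, edgeR, adjusted p = 0.0240; adjusted p = 0.221 without the block). With the block it did not pass without Em (-1.77, edgeR, adjusted p = 0.0698), and without the block its log2 fold change of -2.73 became -0.57 when Em in complete medium was left out. SLC7A1 and SLC7A7 are described here after their values were seen. The broadly used cationic carrier SLC7A1 was 166 CPM in Em and 44.1 to 77.8 in the other lines in complete medium, and 32.7 to 53.1 in differentiation medium, with a log2 fold change of -1.08 ± 0.38 (edgeR, adjusted p = 0.117). SLC7A7, which partners SLC3A2 to export basic amino acids in exchange for neutral ones, was 34.3 CPM in Em, 10.2 in EPN1, 25.8 in EPN2 and 10.9 in LPN in complete medium and 122, 81.8, 15.2 and 32.9 in differentiation medium. It was thus higher in 3 lines and lower in EPN2 (log2 fold change 1.63 ± 0.68, edgeR, adjusted p = 0.170). With the block neither SLC7A1 nor SLC7A7 passed in edgeR (adjusted p = 0.0690 and adjusted p = 0.148), whereas DESeq2 with the block called both (adjusted p = 0.0143 and adjusted p = 0.0252).

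The summed CPM of the 12 SLC7 members were 716 in Em, 138 in EPN1, 265 in EPN2 and 249 in LPN in complete medium and 211, 153, 159 and 112 in differentiation medium. The sum was therefore lower in 3 lines and slightly higher in EPN1. Over all 57 members the sum was 2712 CPM in Em, 1385 in EPN1, 2285 in EPN2 and 1767 in LPN in complete medium, and 1635, 1673, 2879 and 2075 in differentiation medium. It was lower after the change of medium in Em alone, and genes with many counts weigh most in it. In LPN, where the sum was higher, 17 of the 33 tested members were lower, against 50.7% of all genes.

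None of the 4 tested SLC1 members passed. SLC1A5, the sodium-dependent glutamine exchanger, was at 301 CPM in Em, 110 in EPN1, 112 in EPN2 and 184 in LPN in complete medium and at 43.5, 81.0, 248 and 99.0 in differentiation medium. Like SLC3A2, it was lower in 3 lines and higher in EPN2 (log2 fold change -0.58 ± 0.55, SE, edgeR, adjusted p = 0.528). SLC1A2, a glutamate carrier best known from astrocytes, was at 2.49, 0.529, 0.746 and 0.219 CPM in Em, EPN1, EPN2 and LPN in complete medium and at 4.41, 1.22, 0.210 and 0.334 in differentiation medium. It was highest in Em in both media, and its log2 fold change of 0.63 ± 1.06 (edgeR, adjusted p = 0.735) became -0.76 without Em in differentiation medium. SLC1A4 and SLC1A1 are described after their values were seen. The alanine, serine and cysteine carrier SLC1A4 was 87.7 CPM in Em and 12.4 to 24.5 in the other lines in complete medium, and 4.72 to 11.5 in differentiation medium, without overlap. Its log2 fold change of -2.04 ± 0.68 had an adjusted p of 0.107 without and 0.0708 with the block in edgeR, and both DESeq2 fits called it (adjusted p = 0.0212 and adjusted p = 0.00419). The glutamate carrier SLC1A1 was 96.5 CPM in Em in complete medium and 12.3 to 28.3 in the 7 other libraries.

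Within SLC6, carriers that use sodium and chloride, the creatine carrier SLC6A8 and the proline carrier SLC6A7 passed in edgeR only with the block, in opposite directions. SLC6A8 was at 138 CPM in Em, 140 in EPN1, 219 in EPN2 and 145 in LPN in complete medium and at 188, 263, 498 and 278 in differentiation medium. It was higher in differentiation medium in every line, and the media overlapped only through EPN2, whose level in complete medium exceeded that of treated Em. It had a log2 fold change of 0.93 ± 0.31 without the block (edgeR, adjusted p = 0.104) and of 0.87 ± 0.15 with it (adjusted p = 0.0205), and DESeq2 called it also without the block (adjusted p = 0.0413). SLC6A7 was at 43.9, 23.6, 9.11 and 16.2 CPM in Em, EPN1, EPN2 and LPN in complete medium and at 11.7, 5.14, 0.724 and 6.10 in differentiation medium. Its order of lines was the same in both media except that LPN and EPN1 changed places, with log2 fold changes of -1.97 ± 0.78 (adjusted p = 0.151) and, with the block, -2.23 ± 0.38 (adjusted p = 0.0209). In the blocked fit without Em, SLC6A8 passed and SLC6A7 did not.

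SLC6A14, a carrier of neutral and basic amino acids driven by sodium and chloride, varied more between lines than between media. It was at 89.0 CPM in Em, 20.2 in EPN1, 85.6 in EPN2 and 11.97 in LPN in complete medium and at 51.6, 30.4, 128 and 43.4 in differentiation medium. It was lower in Em and higher in the 3 other lines, with a log2 fold change of 0.29 ± 0.72 (SE, edgeR, adjusted p = 0.822) that changed sign without LPN in complete medium or EPN2 in differentiation medium. Of SLC6 members described after their values were seen, the glycine carrier SLC6A9 was lower in all 4 lines (log2 fold change -1.85 ± 0.59, edgeR, adjusted p = 0.0972; DESeq2, adjusted p = 0.0181 without and 0.0229 with the block), and the taurine carrier SLC6A6 ranged from 138 to 388 CPM (log2 fold change 0.48 ± 0.33). The imino acid carrier SLC6A20 failed the filter with 5 counts in Em, 2 in EPN1, 3 in EPN2 and 2 in LPN in complete medium, and had 101, 41, 3 and 14 in differentiation medium. It was above the limit of 3 counts in differentiation medium in 3 lines and at 3 counts in EPN2. It entered the edgeR test in 5 fits without 1 library, through its counts in differentiation medium. It passed in 1 of them, without EPN2 in differentiation medium (adjusted p = 0.0345). That fit leaves out the library without a rise, so it is not independent support. On all 8 libraries DESeq2, run without the expression filter, called it without the block (adjusted p = 0.00345) and with it (adjusted p = 0.00595).

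Among the proton-coupled SLC36 carriers, 3 neighbours on chromosome 16 were higher in differentiation medium in all 4 lines. SLC36A1, which exports small neutral amino acids from lysosomes and lies at chr16:71540646-71589532, was at 15.04 CPM in Em, 11.6 in EPN1, 46.3 in EPN2 and 19.0 in LPN in complete medium and at 27.2, 38.1, 130 and 50.3 in differentiation medium. The media overlapped because EPN2 in complete medium was above 2 of the libraries in differentiation medium. In the fit without the block it had a log2 fold change of 1.41 ± 0.60 (SE, edgeR, adjusted p = 0.176), and with the block of 1.37 ± 0.16 (adjusted p = 0.0126). SLC36A2, a high-affinity carrier of glycine and proline, had 0 CPM in Em, 0.457 in EPN1, 13.5 in EPN2 and 0.682 in LPN in complete medium and 0.475, 3.26, 34.5 and 9.85 in differentiation medium. Its log2 fold change was 1.71 ± 1.75 (adjusted p = 0.560) without and 2.88 ± 0.63 (adjusted p = 0.0338) with the block. The value without the block was 4.99 without EPN2 in complete medium and 0.30 without EPN2 in differentiation medium, and the blocked one was not past the threshold without Em (edgeR, adjusted p = 0.0547). SLC36A3 had 0.108, 0.0481, 0.678 and 0 CPM in Em, EPN1, EPN2 and LPN in complete medium and 0.206, 0.249, 1.40 and 0.731 in differentiation medium, and passed in neither fit (log2 fold change 1.61 ± 1.17, edgeR, adjusted p = 0.406). The annotated spans of SLC36A2 (chr16:71661946-71689464) and SLC36A3 (chr16:71689211-71732634) overlap. The 3 genes had estimated counts that were not whole in 4 to 5 libraries each, and so had SLC38A10 in 7. Whether reads were split among the 3 SLC36 genes was not tested. SLC36A4, elsewhere in the genome, was 10.1 to 19.1 CPM with a log2 fold change of -0.22 ± 0.26.

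Of the SLC38 carriers of glutamine and small neutral amino acids, SLC38A6 and SLC38A7 were higher and SLC38A5 was lower with the block, whereas SLC38A2 did not pass in any fit. SLC38A2, the adaptive sodium-coupled carrier whose level in many cells follows amino acid supply, was 637 CPM in Em, 535 in EPN1, 889 in EPN2 and 605 in LPN in complete medium and 549, 474, 897 and 628 in differentiation medium. Its log2 fold change was -0.07 ± 0.24 (SE, edgeR, adjusted p = 0.888), and its sign changed when single libraries were left out. SLC38A6 was 10.01, 8.42, 9.27 and 9.97 CPM in Em, EPN1, EPN2 and LPN in complete medium and 16.5, 13.6, 13.1 and 15.01 in differentiation medium. The lines lay close together in both media, and a log2 fold change of 0.63 ± 0.16 reached an adjusted p of 0.0535 without and 0.0340 with the block in edgeR. It was called by edgeR without the block under RLE size factors and by both DESeq2 fits. In the blocked edgeR fit without Em it did not pass.

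SLC38A7, a lysosomal glutamine exporter, was 6.65 CPM in Em, 6.66 in EPN1, 15.8 in EPN2 and 10.1 in LPN in complete medium and 12.4, 12.4, 26.8 and 19.6 in differentiation medium. Its within-line changes were nearly equal, from 0.76 to 0.95 on the log2 scale, while the lines themselves were apart, and the log2 fold change was 0.86 ± 0.38 (edgeR, adjusted p = 0.187) without and 0.88 ± 0.13 (adjusted p = 0.0160) with the block. SLC38A9, the lysosomal arginine sensor of mTORC1, was 21.1 to 26.8 CPM in complete medium and 16.8 to 20.8 in differentiation medium. The media did not overlap, yet the log2 fold change of -0.28 ± 0.14 did not pass (edgeR, adjusted p = 0.242; adjusted p = 0.146 with the block).

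SLC38A5, a carrier that moves glutamine, asparagine and histidine in exchange for protons, was 11.05 CPM in Em, 1.32 in EPN1, 0.0452 in EPN2 and 1.05 in LPN in complete medium and 0.413, 0.0679, 0 and 0.0418 in differentiation medium. EPN2 was under the limit of 3 counts in both media, and EPN1 and LPN were at or under it in differentiation medium. The log2 fold change was -4.65 ± 1.68 (SE, edgeR, adjusted p = 0.126) and with the block -4.54 ± 0.35 (adjusted p = 0.00841), and these values rest on few counts. Without Em in complete medium the fit without the block gave -2.56, and without both Em libraries the gene did not pass the expression filter. SLC38A3, a relative with the same exchange mechanism described after its values were seen, was 2.07 to 7.33 CPM in complete and 0.397 to 2.41 in differentiation medium (log2 fold change -1.72 ± 0.65, edgeR, adjusted p = 0.137; DESeq2, adjusted p = 0.0437 without and 0.0115 with the block).

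**Figure D4:**
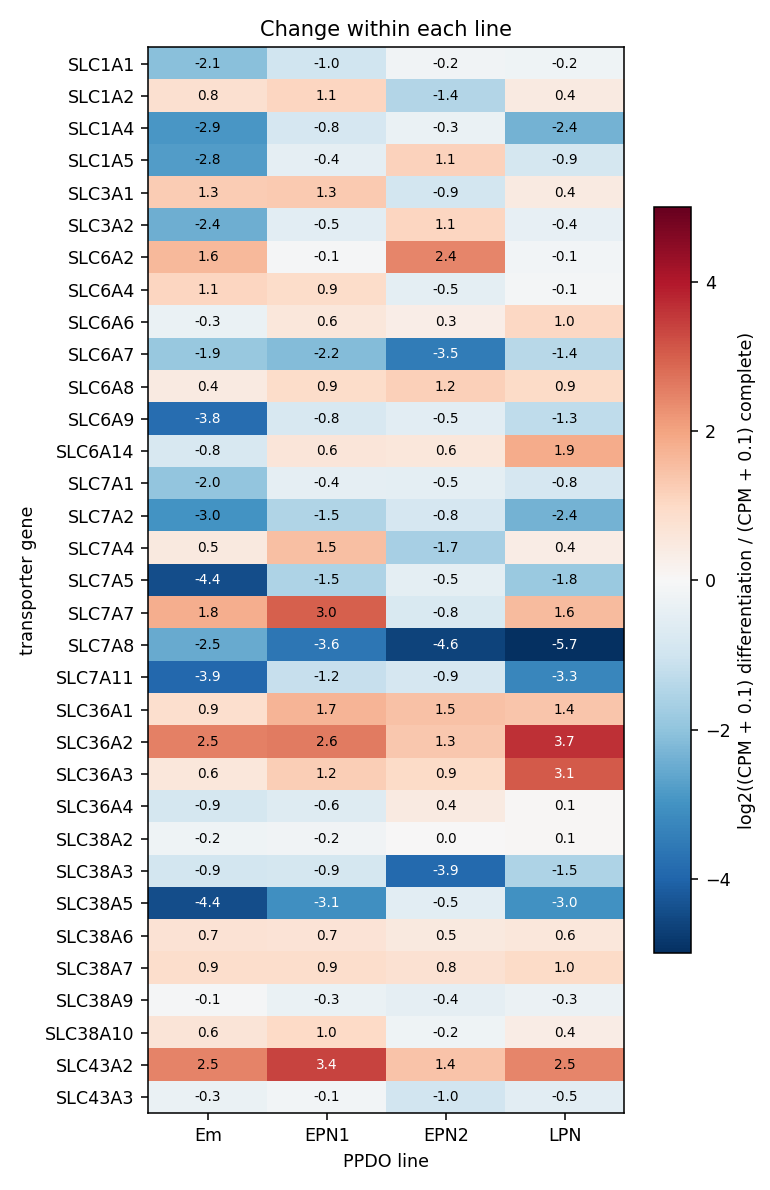
Log2 ratio of CPM plus 0.1 in differentiation over complete medium within each PPDO line for the 33 tested transporter genes, with blue for lower and red for higher in differentiation medium. SLC7A8 is blue and SLC43A2 red in all 4 lines, while SLC1A5 and SLC3A2 are red in EPN2 only, at 1.14 and 1.06.

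The comparison of the lines asked whether transporter expression differed between PPDO of different animals once the medium was taken into account. In the edgeR test of the line, with 2 libraries per line, 5 of 33 members passed, SLC36A1, SLC36A2, SLC38A5, SLC38A7 and SLC7A2, against 5.14% of all genes tested. EPN2 was the highest line for SLC36A1, SLC36A2 and SLC38A7 in both media and the lowest for SLC38A5 and SLC7A2, for which Em was the highest in both. The fitted lines spanned 1.92 log2 units for SLC36A1 (edgeR, adjusted p = 0.0276), 7.51 for SLC36A2 (adjusted p = 0.0387), 7.73 for SLC38A5 (adjusted p = 0.0141), 1.18 for SLC38A7 (adjusted p = 0.0448) and 4.64 for SLC7A2 (adjusted p = 0.0319). The sizes for SLC36A2 and SLC38A5 are uncertain because their lowest lines had few counts. Em had 0 counts of SLC36A2 in complete medium, and EPN2 had 2 and 0 counts of SLC38A5 in complete and differentiation medium. Most of these calls were lost without single lines. SLC36A1 alone passed without Em and SLC38A5 alone without EPN1 or LPN, whereas SLC1A2, SLC38A5 and SLC7A2 passed without EPN2. Calls over the whole table fell too, from 744 genes to 104 without Em, 182 without EPN1, 223 without LPN and 379 without EPN2. The span of SLC36A1 was 1.93 without EPN1, 1.92 without LPN and 0.60 without EPN2. That of SLC7A2 was 4.61 without EPN1, 4.66 without LPN and 2.02 without Em. DESeq2 called 12 of 33, against 30.8% of all genes. Over the 33 tested members the median span between lines was 1.54 log2 units, beside 0.72 over all genes tested.

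**Figure D5:**
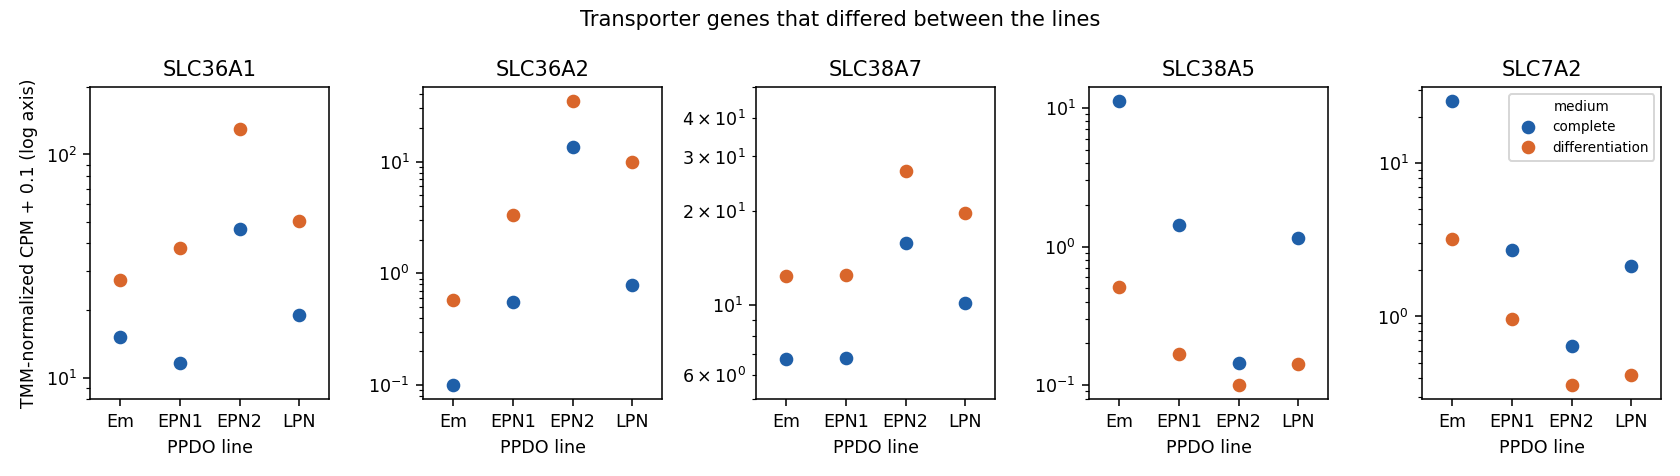
TMM-normalized CPM plus 0.1 (log axis) of the 5 transporter genes that passed the test between the 4 PPDO lines, with 1 point per library and colour for the medium. EPN2 is highest for SLC36A1, SLC36A2 and SLC38A7, and Em is highest for SLC38A5 and SLC7A2, at 11.05 and 25.1 CPM in complete medium.

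Em held the highest CPM in complete medium for 19 of the 33 members, against 28.2% of all genes, and EPN2 for 12, against 28.1%. EPN1 was the highest for 0 members, against 22.6% of all genes, and LPN for 2, against 21.0%. In differentiation medium Em was the highest for 13 members, against 30.0% of all genes, EPN2 for 14, against 34.8%, LPN for 5, against 20.9%, and EPN1 for 1, against 14.3%. The members highest in Em in complete medium included SLC7A5, SLC7A11, SLC3A2, SLC1A5, SLC1A4, SLC7A1 and SLC6A9. The sum over a list of 12 amino acid stress factors was also highest in that library. The summed CPM were 2491 in Em, 1536 in EPN1, 1141 in EPN2 and 1643 in LPN in complete medium and 783, 671, 901 and 743 in differentiation medium. The part of these factors in the transporter values was not tested. Asparagine synthetase ASNS, picked after its values were seen, was 366 CPM in Em in complete medium and 43.3 to 119 in the 7 other libraries. The factor ATF4, which is in the list and drives genes induced by amino acid stress, was 844 in Em and 280 to 515 in the other lines in complete medium.

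Genes around the transporters were taken from 9 lists of enzymes, other carriers, partner proteins, sensors and stress factors, with 120 of 144 entries tested. Of these 12 passed in edgeR without the block, 3 higher and 9 lower in differentiation medium, a share of 10% against 6.97% of all genes, and 26 passed with it, 13 in each direction, a share of 21.7% against 19.9% of all genes. Among glutamine, glutamate and proline enzymes, 1 of 13 passed as higher and 3 as lower, against 2.87% and 4.10% of all genes. PYCR1, which makes proline, fell from 46.3 to 138 CPM in complete medium to 6.18 to 12.3 (log2 fold change -3.14 ± 0.40, edgeR, adjusted p = 0.0116). Glutamate dehydrogenase GLUD1, with 212 to 439 CPM in complete and 86.9 to 141 in differentiation medium, fell (-1.46 ± 0.29, adjusted p = 0.0300) and the alanine transaminase GPT rose (0.73 ± 0.16, adjusted p = 0.0356). The media did not overlap for PYCR1, GLUD1 or GPT.

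Of 12 serine, glycine and one-carbon enzymes tested, the mitochondrial folate enzymes MTHFD2 (log2 fold change -2.18 ± 0.50, edgeR, adjusted p = 0.0420) and MTHFD1L (-1.52 ± 0.37, adjusted p = 0.0479) fell, while ALDH1L2 passed with the block alone (-2.64 ± 0.69, adjusted p = 0.0585 without and 0.0183 with it). Both MTHFD2 and MTHFD1L were highest in Em in complete medium, at 56.8 and 67.1 CPM. Of 12 cystine and glutathione entries tested, GPX1, a glutathione peroxidase (-1.20 ± 0.24, adjusted p = 0.0315), and GCLC, the catalytic subunit of the enzyme that starts glutathione synthesis (-0.83 ± 0.18, adjusted p = 0.0382), fell. CHAC1, which breaks down glutathione, was 106 CPM in Em in complete medium and 1.11 to 39.2 in the 7 other libraries (-3.69 ± 1.03, edgeR, adjusted p = 0.0703). Among 11 branched-chain amino acid enzymes the kinase BCKDK, which switches off branched-chain keto acid breakdown, fell from 65.1 to 79.7 CPM in complete medium to 38.7 to 43.8 (-0.81 ± 0.11, adjusted p = 0.0126), and BCAT1 and BCKDHB, with the next smallest p-values, did not pass (adjusted p = 0.365 and adjusted p = 0.429). Among 22 lysosomal amino acid sensing genes the arginine sensor relative CASTOR2 (1.68 ± 0.28, adjusted p = 0.0189) and the stress-inducible SESN1 (1.10 ± 0.24, adjusted p = 0.0391) rose, and the GTPase RRAGD was lower only with the block (-2.59 ± 0.72, adjusted p = 0.0697 without and 0.0228 with it).

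All 12 amino acid stress factors had a log2 fold change below 0, against 49.3% of all genes. Of them 1 passed, against 4.10% of all genes on the lower side. This was DDIT4, an inhibitor of mTORC1 that was 389 to 787 CPM in complete and 96.5 to 153 in differentiation medium (-2.24 ± 0.26, edgeR, adjusted p = 0.00807). ATF4 (-1.27 ± 0.33, adjusted p = 0.0578) and ATF5 (-1.52 ± 0.57, adjusted p = 0.137) did not pass, and ATF4 was about equal in both media in EPN2, at 280 and 281 CPM. Of 18 other amino acid and peptide carriers, 6 transporter partner proteins and 14 genes of arginine, polyamine, creatine and taurine metabolism, 0 passed without the block in edgeR, and 3 (SLC15A4, SLC25A29 and SLC25A44), 1 (EMB) and 1 (ASL) passed with it, all higher in differentiation medium, against 9.48% of all genes that passed with the block on the higher side. The smallest adjusted p-values without the block were 0.0877 for SLC17A7, 0.105 for SLC25A44 and 0.108 for SLC15A4 among the other carriers. They included 0.209 for ARL6IP5 and 0.213 for ANPEP among the partner proteins, and 0.147 for CDO1, 0.162 for SAT1 and 0.177 for GAMT in the last list. ANPEP, an aminopeptidase of the apical membrane, was 93.9 CPM in Em and 26.0 in EPN1 in differentiation medium but 0.0467 in EPN2 and 1.75 in LPN, so its lines diverged within that medium.

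The change with the medium had the opposite direction in EPN2 alone for several members. SLC1A5 and SLC3A2 were higher in differentiation medium in EPN2 and lower in each of the other lines, whereas SLC1A2, SLC3A1, SLC7A4, SLC7A7 and SLC38A10 were lower in EPN2 and higher in each of the other lines. These 7 genes were picked after their values were seen, and the change of SLC38A10 in EPN2 was small, at -0.20 on the log2 scale. SLC6A14 and SLC6A6 were lower in Em alone, at -0.78 and -0.32. The share of all genes with 1 line of opposite direction was not counted. EPN2 in differentiation medium also had the lowest ductal marker sum and the lowest stromal marker sum, at 2.45 CPM against 7.87 to 51.4 in the other lines in that medium. CFTR was 2.97 CPM in EPN2 and 25.1 to 128 in the other lines in this medium. The part of this difference in the transporter values was not tested.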

How the data were processed

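Poly(A) RNA of 8 libraries was sequenced by the authors. Estimated counts per gene, made by the authors with salmon (nf-core) on a pig genome with their own annotation, were deposited as raw counts. The study's methods name counts scaled by gene length as the DESeq2 input, and the values, 78.7% of them whole among those above 0, do not show whether this table was scaled. Rows of a gene with the suffixes -iso and -ext were summed and rounded. The 8 rows of transgenes, with 0.00142% of counts, were left out. Coordinates are from RefSeq on Sscrofa11.1, a build named in the submitters' processing notes, and 56 of 57 member identifiers matched the name table. Transcript lengths and sequences were not used here.

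Libraries were assigned to media by title and to lines by the column names of the table, since replicate numbers could not be matched to columns. The test between media was edgeR's (4.0.16, R 4.3.3) quasi-likelihood test on TMM-normalized counts, with the edgeR expression filter, no block and Benjamini-Hochberg adjustment over the 14475 genes tested (threshold 0.05). The line test had terms for line and medium. SEs are the absolute log2 fold change divided by the square root of F. The same line served as a pairing across media, because its libraries come from 1 animal. With medium means subtracted, same-line libraries correlated at 0.400 to 0.658 (4 pairs) and others at -0.479 to 0.242 (12 pairs). Alternatives were the line block, DESeq2 1.42.0, RLE size factors, no filter, no -ext rows and fits without single libraries or lines. Within-line ratios used a pseudocount of 0.1 CPM. The scripts were tested on simulated data.

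Members and lists were chosen with earlier results of these data known. The rule for named members took those called in the edgeR fit between media or, with one direction in all lines, in the blocked fit, the member with the most counts in each family, 13 well known carriers and the 5 with the widest range between lines, and for each related list the 3 genes with the smallest adjusted p. Other genes with values in the text, among them SLC36A4, SLC43A3, SLC6A20 and GPT, were chosen after their values were seen. Results for a few genes are not reported here.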

Additional observations from a re-analysis of the deposited data

Results flagged for a closer look

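Of 40 groups of 4 libraries checked for a library far from the other 3 of its medium, 8 exceeded Dixon's critical value for 4 samples, a share of 20%, against 7.66% of the 28950 groups over all genes tested. The critical value is set for about 1 in 20 groups of normal values, which CPM without a log transform need not follow. Of the 8, 5 fell on members that were named for their wide range between lines, and the share is given as a description. The ratio is the gap to the nearest library over the whole range. Em stood apart in complete medium for SLC38A5 (0.884, 11.05 CPM), SLC3A2 (0.843, 131 CPM) and SLC7A2 (0.916, 25.1 CPM), and in differentiation medium for SLC38A5 (0.835, 0.413 CPM). EPN2 stood apart in complete medium for SLC36A2 (0.950, 13.5 CPM), SLC36A3 (0.840, 0.678 CPM) and SLC6A8 (0.915, 219 CPM), and in differentiation medium for SLC7A11 (0.845, 41.8 CPM). In each case that library was the highest of its medium. SLC38A5 in differentiation medium and SLC36A3 are low in counts, so their ratios rest on few reads.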

How the results depend on the processing

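The line marks a pairing, and with it as a block the count of members called by medium went from 1 to 10, and that of related genes from 12 to 26. Calls over the whole table went from 1009 to 2884 genes. Leaving out single lines with the block gave 0 to 15 members, 0 without EPN1 and 0 without LPN, 5 without Em and 15 without EPN2. Over the whole table these fits called 8 genes without EPN1, 22 without LPN, 1730 without Em and 2989 without EPN2. DESeq2 gave 11 members and 28 related genes without the block and 18 and 53 with it, counted over all members with an adjusted p. Over the whole table it called 3001 genes without and 5609 with the block. Its likelihood ratio test gave 12 members by line in place of 5, with 4669 in place of 744 genes over the whole table. RLE size factors gave 2 members by medium, with 986 genes over the whole table. Without the expression filter 7 related genes passed, with 506 genes over the whole table. Without single libraries 1 to 2 members and 2 to 16 related genes passed, while calls over the whole table ran from 70 to 1199 genes. Without single lines 1 to 3 members passed between lines, with 104 to 379 genes over the whole table. SLC43A2 joined SLC7A8 without EPN2 in complete medium. SLC6A20 did so without EPN2 in differentiation medium, where it passed the filter only through the libraries of that medium.

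The sign of 4 named members depended on single libraries. SLC1A2 ranged from -0.76 (without Em in differentiation medium) to 1.65, and SLC3A2 from -1.13 to 0.031 (without Em in complete medium). SLC38A2 ranged from -0.28 to 0.11 (without EPN2 in complete medium), with 0.06 without EPN1 and 0.0019 without Em in differentiation medium. SLC6A14 ranged from -0.30 (without EPN2 in differentiation medium) to 0.70, with -0.04 without LPN in complete medium. The cause was not tested. Of the comparisons of a named member's value with an alternative, 245 kept direction and side of the threshold, 28 kept direction and crossed to an adjusted p under it, and 7, given above, changed sign. With 4 lines, 1 animal each, members under about 3 counts per library could not be compared.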
